A study of Saccharomyces cerevisiae with 6 samples.

Results

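The genes described here are the 57 of budding yeast that encode proteins of the small (40S) ribosomal subunit, out of 5560 genes in the tables. They were chosen by name alone: 24 duplicated pairs with an A and a B gene, such as RPS14A and RPS14B, which make 48 genes, and 9 genes without a duplicate, among them RPS2, RPS3, RPS12, RPS13, RPS15, RPS20, RPS31 and ASC1. The experiment was SLAM-seq, in which cells incorporate 4-thiouracil (4TU) into new RNA, the label is chased, and alkylated thiouracil is read as a T>C conversion, so that the loss of converted T over the chase follows the decay of labelled RNA. The groups were 3 cultures of UPF3-KO, a deletion of UPF3 in the laboratory strain BY4741, and 3 cultures of wild-type BY4741 (WT). The labels give no further allele and call the cultures biological triplicates. Each culture gave 1 unlabelled library, with DMSO in place of 4TU, and 6 labelled libraries at mean chase times of 0, 1.11, 3.92, 7.85, 17.9 and 57.7, called chase points 1 to 6 here. The times carry no unit in the files and are read as minutes.

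Ribosomal protein mRNAs are among the most abundant in growing yeast, and their synthesis is switched together by nutrient signals through the TOR and protein kinase A pathways. Most of the proteins are encoded by a pair of near-identical genes, and several limit their own supply at the level of RNA: Rps14 represses splicing of RPS14B, Rps9 acts on splicing of RPS9A, and Rps28 binds the end of RPS28B mRNA and brings in the decapping factor Edc3. Upf3 is a factor of nonsense-mediated decay (NMD), which destroys mRNAs whose translation stops early, among them unspliced pre-mRNAs that reach the cytoplasm. The stated aim of the series was to identify NMD targets by their mRNA half-lives.

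The targeted gene was lower in the deletion. UPF3 (chromosome VII, 634304 to 635467, build R64) had 4.32, 5.40 and 6.18 CPM in UPF3-KO, against 24.1, 27.5 and 30.7 in WT, and fell by 2.37 on the log2 scale (SE 0.21, adjusted p = 0.00297, edgeR). CPM are reads scaled to library size with TMM factors, here over the summed labelled libraries of a culture. The reads come from the 3′ end of the transcript, and the sources used here do not say how much of the gene was removed.

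The 42 libraries held 11045419 to 23761767 reads, and every one of the 57 genes had between 1822 and 169002 reads in each library. At most 0.482% of the reads of any of them were counted as multi-mapping. Whether the authors' mapping always gave reads to the right gene of an A and B pair was not tested. Reads are counted in a 3′ window of 522 to 1493 bases (median 612) that does not separate spliced from unspliced transcripts. The sources used here do not say whether reads were counted by strand: ASC1 and RPS22B contain the small nucleolar RNA genes SNR24 and SNR44, 30 of the 57 have a gene facing them within 500 bases downstream, and RPS14B and RPS22A face each other on chromosome X, 298 bases apart. The culture UPF3-KO replicate 1 stood apart. The 57 genes took 16.5% of its reads at the first chase point, against 9.21% and 10.3% in the other UPF3-KO cultures and 14.1%, 10.8% and 10.6% in WT. Results that rest on it are given with and without it. All reads are shares of a library, so fewer cells and less RNA per cell cannot be told apart. Nor can a rise of some mRNAs be told from a fall of the others.

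All 57 genes were highly expressed in both genotypes, between the 91.8th and 99.8th percentile of all genes by normalised CPM per kb of counting window. By the mean of all 6 cultures RPS12 (YOR369C) was highest, with 11297 ± 3283 CPM per kb in UPF3-KO and 12376 ± 2764 in WT (SD, n = 3 each). Next came RPS31, whose product is made as a fusion with ubiquitin, with 11614 ± 4790.1 CPM per kb in UPF3-KO and 11769 ± 2856 in WT, and RPS13 with 7769.7 ± 2109.8 in UPF3-KO and 7277 ± 1518 in WT. RPS31 stood above RPS12 in the UPF3-KO mean and below it in the WT mean, and the values of RPS12 and RPS31 overlapped, as did the genotypes for each of the 3 genes. The lowest by that mean were RPS14B (YJL191W), at 596 ± 253 CPM per kb in UPF3-KO and 427 ± 137 in WT, RPS9A (YPL081W), at 572 ± 76.5 in UPF3-KO and 453 ± 10.9 in WT, and RPS28B (YLR264W), at 827 ± 302 in UPF3-KO and 834 ± 247 in WT. In WT alone RPS22B, at 817 CPM per kb, lay below RPS28B. RPS28B has the longest counting window of the 57, at 1493 bases, which lowers its level per kb. Before division by window length RPS22B lay below RPS28B in every culture, so RPS28B was not among the 3 lowest in CPM. RPS14B, RPS9A and RPS28B are the paralogs known for control by their own protein product, and their partners stood far higher, at 5932 ± 1948 CPM per kb in UPF3-KO and 6566 ± 1649 in WT for RPS14A, 6405 ± 3003 in UPF3-KO and 6614 ± 2549 in WT for RPS9B, and 5006 ± 1930.5 in UPF3-KO and 5527 ± 1588 in WT for RPS28A. For the RPS28 pair the size of the contrast depended on window length, which is 616 bases for RPS28A. Of the pair's reads RPS28A took 71.3% in UPF3-KO and 73.3% in WT, against 85.8% and 86.9% per kb. The 9 genes without a duplicate had a median of 5818 CPM per kb in UPF3-KO and 6161 in WT, against 2814 in UPF3-KO and 2906 in WT for the 48 paired genes. ASC1, the yeast counterpart of the signalling scaffold RACK1, had 3811 ± 1266 CPM per kb in UPF3-KO and 4312 ± 1258 in WT.

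The first comparison asked whether loss of UPF3 changed the level of these mRNAs. In the summed labelled libraries none of the 57 passed an adjusted p of 0.05 (edgeR), beside 5.58% of all genes tested that were higher in UPF3-KO and 0.18% that were lower. Without adjustment, 2 were lower at p under 0.05 and none was higher. Their median log2 change was -0.08, against -0.01 for all genes, and its sign depended on single cultures. It was -0.43 without UPF3-KO replicate 1, -0.20 without WT replicate 2 and -0.20 without WT replicate 3, but 0.09 without UPF3-KO replicate 2, 0.05 without UPF3-KO replicate 3 and 0.16 without WT replicate 1. In the unlabelled libraries again none passed, beside 3.23% of all genes higher and 0.0726% lower, with 1 lower at an unadjusted p under 0.05. The median log2 change there was -0.21 for the 57 genes and -0.04 for all genes, but 0.03 and 0.02 without WT replicate 1, and -0.13 and -0.08 without UPF3-KO replicate 2. Without both cultures numbered 1, left out after seeing the data, it was -0.09 and -0.04.

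RPS20 (YHL015W, chromosome VIII, 75412 to 75777), a protein of the head of the subunit, had the lowest p in both sets of libraries. It had 692, 443 and 867 CPM in UPF3-KO, against 1050.3, 1211 and 1230.3 in WT, in the labelled libraries, a log2 change of -0.80 (SE 0.27, adjusted p = 0.209, edgeR). In the unlabelled libraries it had 312, 369.6 and 356 CPM in UPF3-KO, against 483, 914 and 868 in WT (log2 change -1.13, SE 0.28, adjusted p = 0.0907, edgeR). All 3 deletion cultures lay below all 3 wild-type cultures in both sets. Its CPM varied between libraries of 1 culture, from 266 to 537 over the chase in UPF3-KO replicate 2 and from 463 to 1231 in UPF3-KO replicate 1. RPS19A, whose human counterpart is mutated in Diamond-Blackfan anaemia, also did not overlap in the labelled libraries, with 955, 934 and 1172 CPM in UPF3-KO and 1484, 1320.3 and 1375 in WT (log2 change -0.45, SE 0.18, adjusted p = 0.290), but overlapped in the unlabelled ones. RPS9A was the 1 gene with every deletion culture higher, at 418, 319 and 376 CPM in UPF3-KO and 290.3, 289 and 302 in WT (log2 change 0.34, SE 0.17, adjusted p = 0.467). Of all genes tested, 15.6% had deletion cultures wholly above wild type in the labelled libraries and 7.22% wholly below, against 1 and 2 of the 57. RPS27B (-0.42, adjusted p = 0.656) came next by p in the labelled libraries. In the unlabelled libraries 4 of the 57, among them RPS20, RPS27B and RPS6B, had every deletion culture below every wild-type culture, beside 4.74% of all genes, while none was higher in all 3, beside 13.7%, and RPS1B (-0.32) and RPS31 (-0.34) were among the 5 lowest p.

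These levels depended on how the cultures were matched. Cultures with the same replicate number deviated together across genes (correlations of 0.94, 0.91 and 0.87 in the labelled libraries and 0.80, 0.80 and 0.58 in the unlabelled ones), and with the replicate number as a block 5 of the 57 passed in the labelled libraries. In that fit RPS14B rose (log2 change 0.45, SE 0.10, adjusted p = 0.0175) and 4 fell, among them RPS20 (-0.85, adjusted p = 0.0131), RPS19A (-0.46, adjusted p = 0.0210) and RPS27B (-0.43, adjusted p = 0.0298), beside 20% of all genes higher and 7.52% lower. RPS20 was also the single gene called with the block in the unlabelled libraries (log2 change -1.08, SE 0.17, adjusted p = 0.000788), beside 13.2% of all genes higher and 2.17% lower. DESeq2, with no block, called RPS20 and RPS19A lower in the labelled libraries (adjusted p = 0.0422 and 0.0346), beside 8.79% of all genes higher and 1.33% lower, and RPS20 in the unlabelled ones (adjusted p = 0.00218), beside 6.02% higher and 0.595% lower. Without WT replicate 1, and with no block, RPS20 passed in the unlabelled libraries as well (log2 change -1.35, SE 0.17, adjusted p = 0.0111, edgeR). RPS14B had 519, 256 and 270.3 CPM in UPF3-KO, against 341, 213 and 194 in WT, higher in the deletion within each replicate number but overlapping between the groups. In the unlabelled libraries it had 367, 292 and 329.7 CPM in UPF3-KO and 405, 275 and 256 in WT (log2 change 0.08, adjusted p = 0.993), lower in the deletion in 1 of the 3 numbers.

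**Figure D1:**
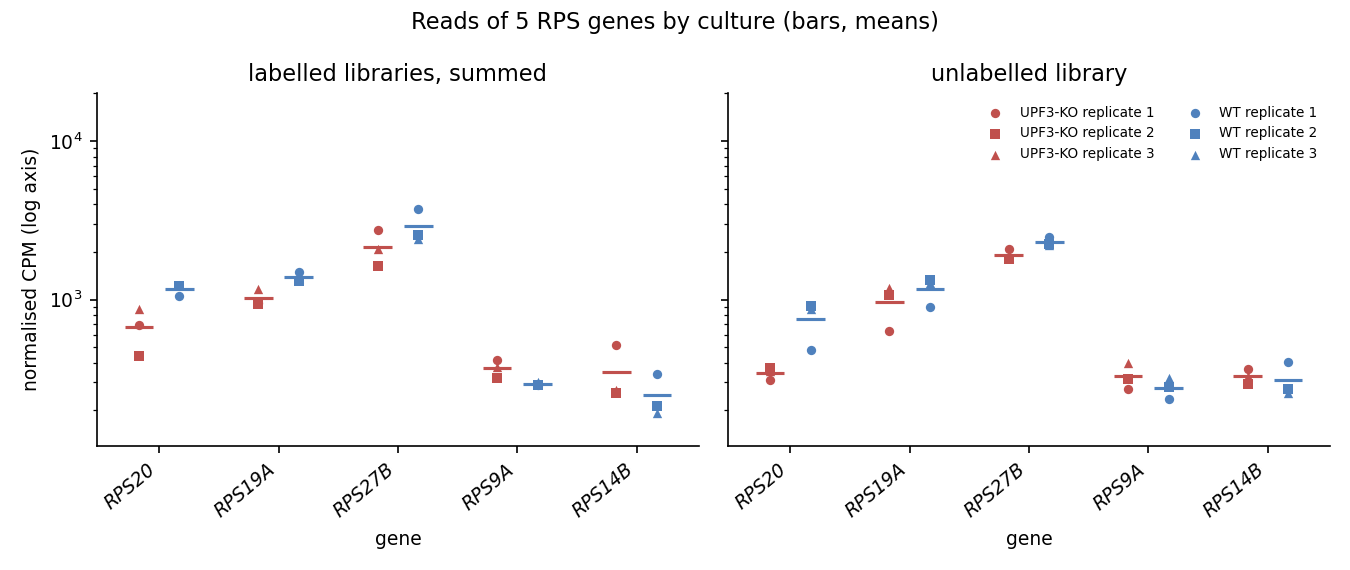
Normalised CPM (log axis) of 5 genes in the 3 UPF3-KO cultures (red, left of each pair of columns) and the 3 WT cultures (blue), for the summed labelled libraries and for the unlabelled library, with bars for means of 3 cultures and marker shapes for replicate numbers. RPS20 lies lower in all 3 deletion cultures in both panels, and RPS14B is higher in the deletion within each number in the left panel.

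The other genes of the RPS9, RPS14, RPS22 and RPS28 pairs overlapped between genotypes in reads, as did RPS31 and ASC1. RPS22B (YLR367W, chromosome XII, 856442 to 857317), whose intron is cut by the RNase III enzyme Rnt1, had 915, 529.7 and 508 CPM in UPF3-KO and 680.1, 464 and 461 in WT in the labelled libraries (log2 change 0.28, SE 0.31), but 798, 694 and 753 in UPF3-KO and 1174, 768 and 798 in WT in the unlabelled ones (log2 change -0.29, SE 0.23). RPS28B had 1753, 937 and 1014 CPM in UPF3-KO and 1669.6, 1059 and 1006 in WT (log2 change -0.01, SE 0.33). For RPS28A, RPS14A, RPS22A, RPS9B, RPS31 and ASC1 the log2 changes in the labelled libraries lay between -0.18 for ASC1 and -0.02 for RPS31, each smaller than its SE.

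Few of these genes differed between labelled and unlabelled libraries. Between the first labelled library and the unlabelled library of the same culture, 2 of the 57 passed, beside 3.99% of all genes higher with 4TU and 1.95% lower (edgeR, culture as block). CPM of single libraries, here and over the chase, were scaled over all 42 libraries. RPS20 was higher with 4TU (log2 change 0.84, SE 0.16, adjusted p = 0.0236), with 885, 459 and 689 CPM at the first chase point in UPF3-KO, against 324, 348 and 346 without label, and 1076, 1476 and 1234 in WT, against 493, 931 and 891 without label, so it was higher in 6 of 6 cultures. RPS22B was lower with 4TU (log2 change -0.88, SE 0.19, adjusted p = 0.0303). Its CPM at the first chase point were 893, 376 and 365 in UPF3-KO, against 828, 654 and 732 without label, and 486, 367 and 379 in WT, against 1198, 782 and 819 without label, so it was lower in 5 of 6 cultures and not in UPF3-KO replicate 1. Without UPF3-KO replicate 1, 28 of the 57 were lower with 4TU and 2 higher, beside 12.3% and 13.9% of all genes. Without any 1 of the other cultures, at most 1 was higher and none was lower.

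As shares of a library, the reads of these genes rose late over the chase. Each chase point was compared with point 1 of the same cultures (edgeR, culture as block), so the comparisons share point 1. The number of the 57 that rose was 0, 0, 1, 14 and 49 at points 2 to 6, and none fell at any point. The shares of all genes that rose at these points were 0.271%, 6.06%, 14.9%, 16.5% and 14.6%, and those that fell were 0.0541%, 2.85%, 12.8%, 15.1% and 11.9%. At the last point the median log2 change of the 57 was 0.58, against 0.05 for all genes. As a share of all reads, they took 17.7%, 13.4% and 13.4% at the last point in UPF3-KO, against 16.5%, 9.21% and 10.3% at the first, and 19.0%, 13.4% and 14.0% at the last in WT, against 14.1%, 10.8% and 10.6% at the first. The ratio of last to first was 1.07, 1.46 and 1.30 in UPF3-KO and 1.35, 1.24 and 1.32 in WT. In UPF3-KO replicate 1, 27 of the 57 were higher at the last point than at the first, and in the other 5 cultures 55 to 57 were. In all 6 cultures 27 of the 57 were higher at the last point and none was lower, beside 11.8% and 9.59% of all genes.

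RPS22B rose most at the last point (log2 change 1.19, SE 0.14, adjusted p = 3.45e-08), with 1361, 842 and 778 CPM in UPF3-KO and 1464, 879 and 953 in WT. The rise is from point 1, where RPS22B was lower than without label in every culture but UPF3-KO replicate 1. Without label it had 828, 654 and 732 CPM in UPF3-KO and 1198, 782 and 819 in WT. ASC1 (0.90), RPS9B (0.80), RPS6B (0.76), a target of phosphorylation downstream of TOR in yeast, and RPS4A (0.65) had the other lowest p, with adjusted p between 3.79e-10 for RPS6B and 2.69e-08 for RPS9B. RPS6B had 3747, 2986 and 3063 CPM at the last point in UPF3-KO and 4858, 3959 and 4421 in WT, against 2683, 1831 and 1733 at the first in UPF3-KO and 2832, 2293 and 2237 in WT. Among the genes followed whatever their values, RPS28B (0.88), RPS31 (0.74), RPS14A (0.69), RPS22A (0.63), RPS28A (0.62), RPS14B (0.58) and RPS9A (0.57) rose as well. Among the 8 that did not pass, RPS27A and RPS20 had log2 changes of 0.08 (RPS27A) and 0.02 (RPS20), and RPS27B, RPS29A, RPS7B, RPS19A and RPS29B lay between 0.24 and 0.43.

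RPS9A took another course from most of the rest. It was the 1 gene that had risen by point 4 (log2 change 0.55, SE 0.10, adjusted p = 8.99e-05), and at point 5 it had 781, 547 and 602 CPM in UPF3-KO and 569, 512 and 519 in WT, against 327, 213 and 264 at point 1 in UPF3-KO and 201, 217 and 231 in WT (log2 change 1.29, SE 0.10, adjusted p = 1.76e-11). At the last point it stood at 463, 402 and 394 CPM in UPF3-KO and 332, 276 and 291 in WT. In all 6 cultures its reads were highest at point 5. RPS27A also stood highest at point 5 in WT, at 1803, 1293 and 1306 CPM, against 1590, 1141 and 1244 at the last point. In UPF3-KO this held for RPS27A in replicate 3 (1059 CPM, against 1056) but not in replicates 1 and 2. After RPS9A, the lowest p at point 5 were those of RPS6B (0.34, adjusted p = 0.000438), RPS28B (0.46, adjusted p = 0.00174), RPS14B (0.50, adjusted p = 0.00205) and RPS22B (0.48, adjusted p = 0.00656), so that the low-expressed paralogs of the RPS9, RPS14, RPS22 and RPS28 pairs were all among the 14. At point 2 the lowest p were those of RPS0A, RPS1A, RPS1B, RPS24A and RPS31, with log2 changes from -0.19 to -0.14, and at point 3 those of RPS0A (-0.16), RPS9A (-0.13), RPS28A, RPS22A and RPS25B (each 0.14). None of these passed.

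The count at the last point ranged from 37 to 56 when each culture was left out in turn, with 8.22% of all genes rising and 9.47% falling where it was 37 (without UPF3-KO replicate 3) and 18% rising and 13.5% falling where it was 56 (without UPF3-KO replicate 1). Earlier points rested more on UPF3-KO replicate 1: without it, 27 of the 57 passed at point 4 and 51 at point 5, beside 18.2% and 21% of all genes that rose and 16.1% and 16% that fell, and without any 1 of the other cultures 4 to 7 passed at point 5.

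**Figure D2:**
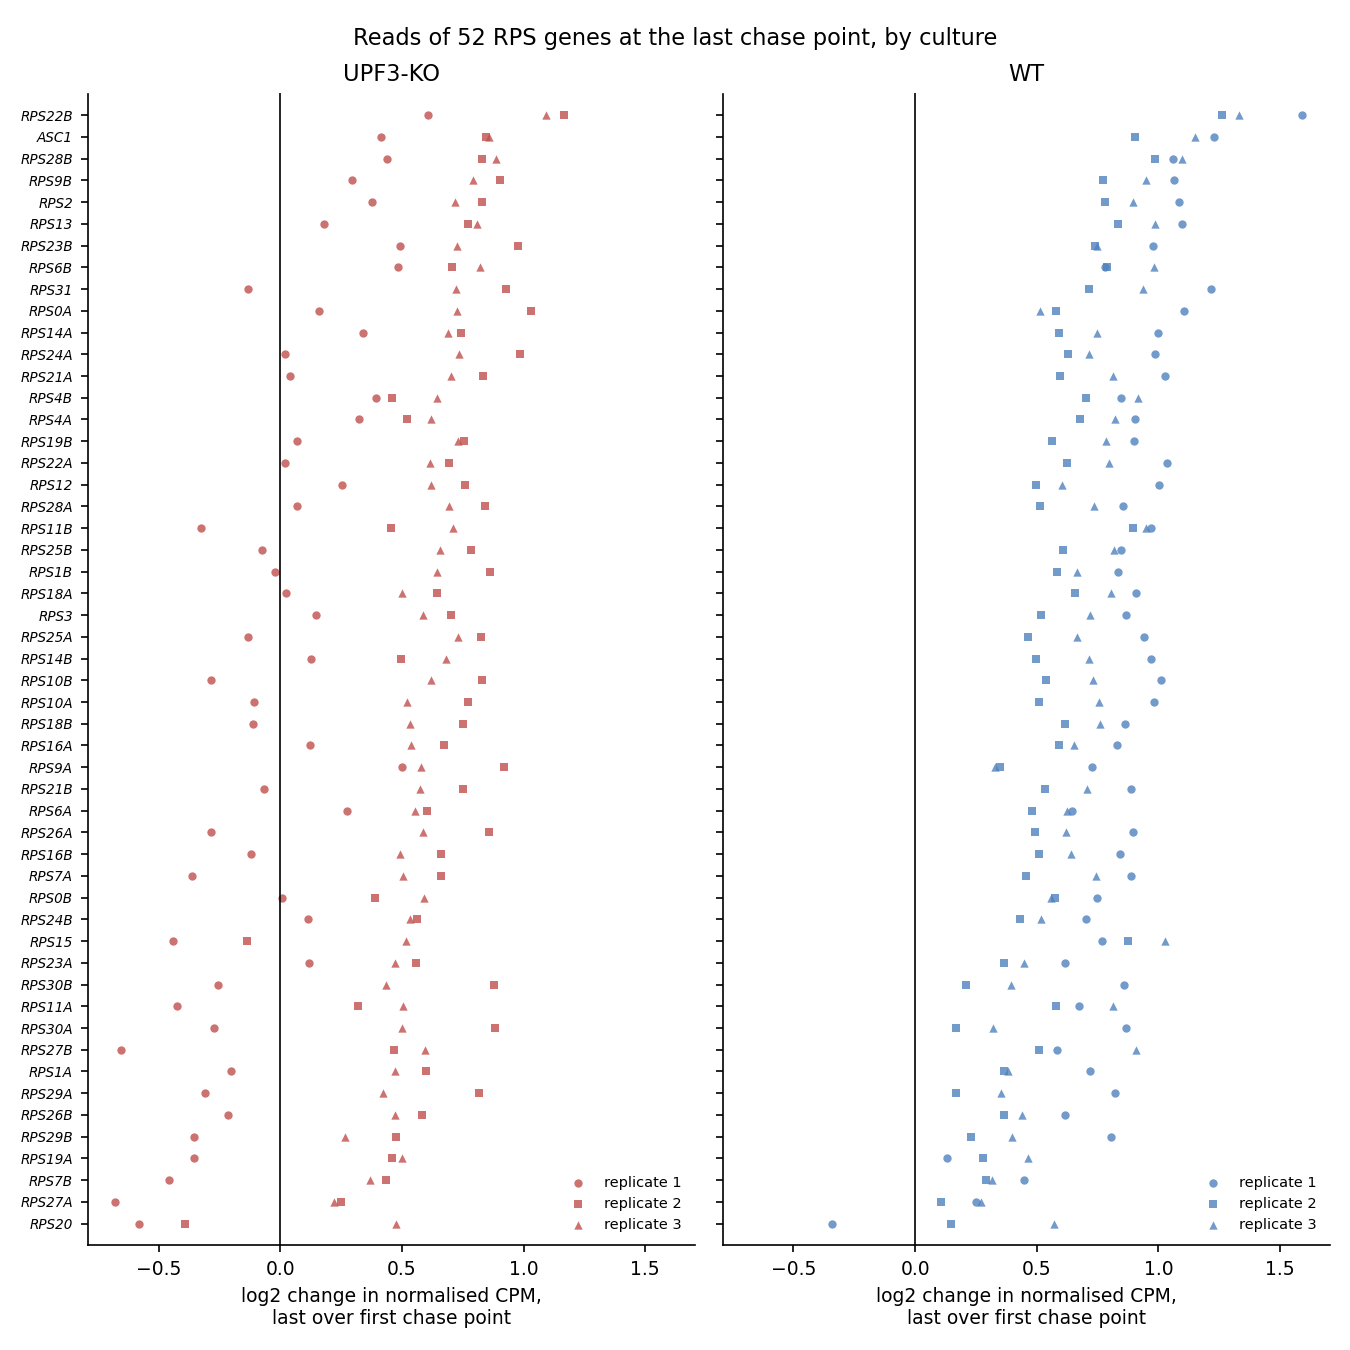
Log2 change in normalised CPM between the last and the first chase point for 52 of the 57 genes (rows, ordered by their mean) in the 3 UPF3-KO cultures (left) and the 3 WT cultures (right). The circles of UPF3-KO replicate 1 lie lowest of the 3 UPF3-KO cultures for every gene drawn, and RPS22B has the highest mean in both panels.

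The large subunit genes showed a like count. Of 81, 72 rose at the last point and none fell, with a median log2 change of 0.61. Of 37 genes for assembly of the small subunit, such as those for the UTP proteins and the export factor Ltv1, 27 rose at point 4, 27 at point 5 and 2 at point 6, where 2 fell. Of 15 regulators of ribosomal protein genes, such as IFH1, SFP1 and SCH9, 6 rose at point 5 and 2 at point 6, where 1 fell. With 4TU against none, 13 of the 37 assembly genes were higher and none was lower. In reads by genotype none of the 37 assembly genes passed in either set of libraries.

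The change over the chase was compared between genotypes as an interaction. At point 5 none of the 57 passed, beside 0% of all genes with a larger and 0.0721% with a smaller change in UPF3-KO, and none reached an unadjusted p under 0.05. Among the lowest p were those of RPS0B (-0.27), RPS11B (-0.41), RPS28B (-0.31) and ASC1 (-0.28), with adjusted p of at least 0.730. At the last point RPS15 alone passed, beside 0.108% of all genes with a larger and 0.162% with a smaller change. RPS15 (YOL040C, chromosome XV, 253149 to 253577), needed in yeast for export of the young subunit from the nucleus, had 2151, 2533 and 3817 CPM at the last point in UPF3-KO, against 2922, 2788 and 2668 at the first, and 3834, 5924 and 6276 at the last in WT, against 2251, 3232 and 3082 at the first. Its log2 change over the chase was -0.44, -0.14 and 0.52 in UPF3-KO and 0.77, 0.87 and 1.03 in WT, a difference of -0.91 (SE 0.20, adjusted p = 0.0492, edgeR). All deletion cultures lay below all wild-type cultures. The call was lost with RLE size factors and when UPF3-KO replicate 2 or any 1 WT culture was left out, and held without UPF3-KO replicate 1 (-0.64, adjusted p = 0.0430). The median interaction of the 57 was -0.29 at the last point, against 0.00 for all genes, and rested largely on UPF3-KO replicate 1: without it the median was -0.04, against 0.04 for all genes. Without UPF3-KO replicate 3 it was -0.44, against -0.05 for all genes.

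Label in these mRNAs was lost slowly. At the first chase point the 57 genes carried a median of 2.48% ± 0.0475 converted T after subtraction of the unlabelled library in UPF3-KO and 2.47% ± 0.0909 in WT (SD, n = 3 each), against 2.52% ± 0.132 in UPF3-KO and 2.70% ± 0.160 in WT over all genes. None of the 57 passed for this first label, beside 0% of all genes in either direction (limma). In 3 of the 57 every deletion culture carried more first label than every wild-type culture and in none less, beside 1.52% and 8.66% of all genes. Among the lowest p were those of RPS19A (0.14), RPS14B (-0.12), RPS20 (0.16) and RPS9A (-0.08), with adjusted p of at least 0.808. As a share of that first label, their median at points 3, 4 and 5 was 93.8%, 86.0% and 60.7% in UPF3-KO and 95.7%, 85.9% and 58.9% in WT. Over all genes it was 81.9%, 61.9% and 28.8% in UPF3-KO and 75.5%, 51.6% and 23.8% in WT. By point 6 the 57 genes kept 5.84% ± 0.739 in UPF3-KO and 5.91% ± 0.281 in WT. New RNA made during the chase lowers the converted share as well as decay does, so these values describe turnover of the label in the pool and not decay alone.

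**Figure D3:**
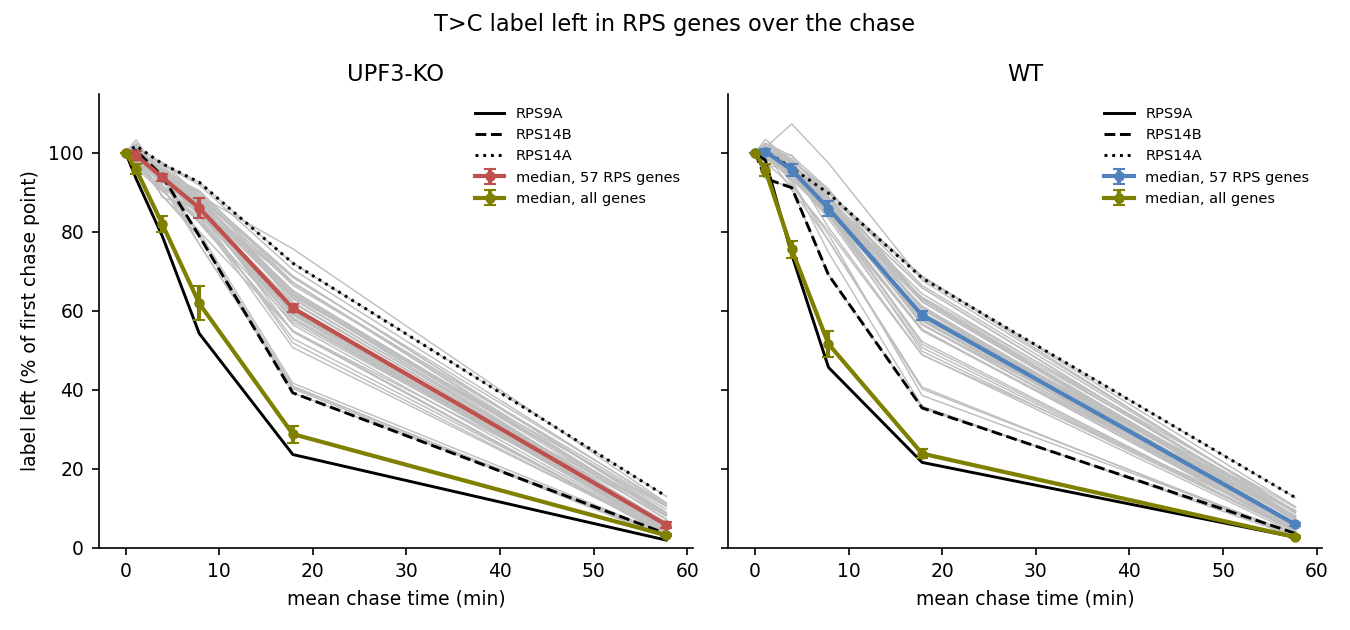
Label left (converted T above the unlabelled library, as a percentage of the first chase point) over mean chase time in UPF3-KO (left) and WT (right). Grey lines are means of 3 cultures for 52 single genes, coloured lines are medians with SD over 3 cultures, and at point 5 RPS9A lies below the median of all genes in both panels while the rest lie above it.

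The genes did not lose label alike. At point 5, 56 of the 57 kept more label than the median gene in each genotype, and the exception was RPS9A, with 24.8%, 24.7% and 21.4% left in UPF3-KO and 21.4%, 21.0% and 22.4% in WT. RPS14B kept 41.6%, 40.8% and 35.3% in UPF3-KO and 40.4%, 32.0% and 33.8% in WT. Its partner RPS14A kept 72.7%, 72.7% and 70.7% in UPF3-KO and 69.1%, 66.1% and 69.6% in WT, so RPS14A stood above RPS14B in all 6 cultures. RPS22B kept 41.7% ± 0.567 in UPF3-KO and 40.7% ± 4.06 in WT, and RPS27A 40.3% ± 1.05 in UPF3-KO and 35.8% ± 0.218 in WT. At the other end RPS25A, needed for initiation at viral internal entry sites, kept 70.5% ± 0.198 in UPF3-KO and 68.8% ± 2.44 in WT. The order of the 57 genes was close to the same in the 2 genotypes (Spearman's rho 0.96 across the 57 genes, which share their libraries).

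The design asked for changes in half-life. None of the 57 genes passed between genotypes in half-life or in label left at point 5, and none of all genes did (0% in each direction, limma). Of other curves, a single exponential called none of the 57 but 0.368% of all genes longer-lived in UPF3-KO, and the line without the last point none of the 57 but 0.0568%, with none shorter-lived by either. In half-life no member reached an unadjusted p under 0.05 either, where at that level 213 of all 5333 genes were longer-lived in UPF3-KO and 89 shorter-lived. From the line fitted to all 6 points, the median half-life of the 57 was 13.7 ± 0.610 min in UPF3-KO and 13.8 ± 0.240 min in WT, against 11.7 ± 0.399 min in UPF3-KO and 11.4 ± 0.153 min in WT over all genes (SD, n = 3 each). The size of that gap depended on the curve. A single exponential fitted to the rates gave 19.8 ± 0.640 min in UPF3-KO and 19.6 ± 0.132 min in WT for the 57, against 10.3 ± 0.810 min in UPF3-KO and 8.52 ± 0.501 min in WT over all genes, and the line without the last point gave 24.1 ± 1.19 min in UPF3-KO and 22.7 ± 0.887 min in WT, against 9.65 ± 0.517 min in UPF3-KO and 8.62 ± 0.257 min in WT. A line on the labelled amount gave 15.5 ± 0.408 min in UPF3-KO and 16.5 ± 0.588 min in WT for the 57. Over all genes it gave 11.6 ± 0.429 min in UPF3-KO and 11.3 ± 0.180 min in WT. By that line the median log2 change was -0.12 for the 57 and 0.02 for all genes, and none passed. Half-lives are therefore compared within 1 kind of fit.

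The 5 genes with the lowest p for half-life were RPS30A, RPS21A, RPS7B, RPS11A and RPS20. RPS30A, whose mammalian counterpart is made as a fusion with a ubiquitin-like protein, had 18.4, 17.1 and 17.7 min in UPF3-KO and 15.0, 15.1 and 16.1 min in WT (log2 change 0.20, SE 0.17, adjusted p = 0.890). RPS21A, which sits beside Rps0 and Rps2 in the subunit, had 16.2, 15.1 and 15.1 min in UPF3-KO and 13.7, 13.8 and 14.1 min in WT (log2 change 0.16, SE 0.14, adjusted p = 0.904). RPS7B (-0.14), RPS11A (-0.11) and RPS20 (0.17) had adjusted p of at least 0.909. Of the 57, 3 had every deletion culture above every wild-type culture and 2 every one below, beside 7.54% and 4.5% of all genes. For label left at point 5 the lowest p were those of RPS11B (0.13), RPS21A (0.13), RPS28B (0.17), RPS31 (0.10) and RPS15 (0.10), with adjusted p of at least 0.352, and 3 of the 57 had an unadjusted p under 0.05, all with more label in UPF3-KO. RPS28B kept 54.9% ± 1.65 in UPF3-KO and 48.8% ± 1.21 in WT, without overlap. In all, 15 of the 57 had more label left in every deletion culture than in every wild-type one and none had less, beside 18.1% and 1.49% of all genes. The median log2 change was 0.06 for the 57 and 0.18 for all genes.

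The genes differed among themselves in half-life by the line. Among the highest in WT were RPS14A, with 18.8 ± 0.918 min in UPF3-KO and 18.8 ± 0.261 min in WT, and RPS25A, with 17.4 ± 0.556 min in UPF3-KO and 17.1 ± 0.167 min in WT. The lowest in WT were RPS22B, with 11.6 ± 1.09 min in UPF3-KO and 10.9 ± 0.262 min in WT, RPS27A, with 10.6 ± 0.651 min in UPF3-KO and 10.9 ± 0.902 min in WT, and RPS9A, with 9.95 ± 2.27 min in UPF3-KO and 11.1 ± 0.688 min in WT. By this line RPS22B, RPS27A and RPS9A did not differ from each other beyond their spread, and RPS7B, at 10.7 min in UPF3-KO and 11.7 min in WT, lay below RPS22B in UPF3-KO. By the exponential RPS9A lay apart, at 8.60 ± 0.623 min in UPF3-KO and 7.59 ± 0.220 min in WT. That fit gave RPS27A 14.2 ± 0.611 min in UPF3-KO and 13.0 ± 0.106 min in WT, and RPS22B 14.3 ± 0.799 and 14.0 ± 1.17 min. By the line on the labelled amount RPS9A did not lie apart, at 11.1 ± 2.45 min in UPF3-KO and 12.3 ± 1.16 min in WT. RPS27A had 10.5 ± 0.396 min in UPF3-KO and 11.6 ± 0.939 min in WT by that line. ASC1 had 17.1 ± 1.25 min in UPF3-KO and 16.5 ± 0.156 min in WT, RPS9B 15.8 ± 0.594 min in UPF3-KO and 16.1 ± 0.654 min in WT, and RPS31 15.8 ± 0.958 min in UPF3-KO and 15.2 ± 0.253 min in WT. In the RPS28 pair, RPS28A had 15.3 ± 0.775 min in UPF3-KO and 15.0 ± 0.488 min in WT, and RPS28B 14.3 ± 0.830 min in UPF3-KO and 13.8 ± 0.251 min in WT. RPS22A had 14.0 ± 0.695 min in UPF3-KO and 14.0 ± 0.314 min in WT, and RPS14B 11.6 ± 0.109 min in UPF3-KO and 11.9 ± 1.14 min in WT. Each of these 7 genes overlapped between genotypes. The 9 genes without a duplicate had a median of 15.8 min in UPF3-KO and 15.4 min in WT, and the 48 paired genes 13.3 min in each genotype. Across the 57 genes, level per kb and half-life in WT had a Spearman's rho of 0.60, against 0.02 across 5333 genes. The values of both measures come from the same libraries.

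The duplicated pairs were split unevenly. The A gene took over 50% of the pair's reads in WT in 16 of 24 pairs, and 7 pairs lay between 40% and 60%. The 4 most unequal pairs in WT were RPS14, RPS9, RPS22 and RPS24. RPS14A took 89.9%, 91.1% and 91.1% of the RPS14 reads in UPF3-KO and 93.3%, 93.8% and 94.1% in WT. RPS9A took 7.50%, 11.8% and 13.1% in UPF3-KO and 5.50%, 9.63% and 10.2% in WT. RPS22A took 81.3%, 78.9% and 80.1% in UPF3-KO and 84.9%, 83.7% and 83.0% in WT, and RPS24A took 75.2% ± 1.51 in UPF3-KO and 77.1% ± 1.55 in WT. The most equal in WT were RPS21, at 56.1% ± 0.808 in UPF3-KO and 50.5% ± 0.439 in WT, and RPS10, at 50.4% ± 0.275 in UPF3-KO and 51.7% ± 0.440 in WT.

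Genotypes differed by a few points in these shares. The median size of the difference was 1.65 points. In 8 of 24 pairs the cultures of the 2 genotypes did not overlap. For reads of single genes, 22.8% of all genes did not overlap in the labelled libraries and 18.4% in the unlabelled ones. In each of the 8 the exact permutation test gave a two-sided p of 0.1, the smallest that 3 cultures against 3 allow, over 24 pairs tested. The A share was higher in UPF3-KO for RPS27A (35.2% ± 2.13, against 29.1% ± 1.88 in WT), RPS21A (values above), RPS30A (50.5% ± 0.353, against 45.0% ± 0.345) and RPS26A (76.2% ± 0.628, against 75.1% ± 0.745). It was lower in UPF3-KO for RPS14A, RPS22A, RPS28A (71.3% ± 0.468, against 73.3% ± 0.158) and RPS10A. For RPS30A all 3 deletion cultures lay above 50% and all 3 wild-type cultures below. That was not so in the unlabelled libraries, where RPS30A took 60.2%, 55.1% and 58.1% in UPF3-KO and 50.8%, 50.5% and 52.6% in WT. In the unlabelled libraries, which the above does not use, 4 of the 8 pairs again did not overlap in the same direction, RPS14, RPS21, RPS27 and RPS30, and for RPS10, RPS22 and RPS26 the difference had the other sign. Within replicate numbers, 10 pairs had a higher A share in UPF3-KO in all 3 numbers and 10 a lower one (exact sign-flip test, p = 0.25 each, the smallest for 3 numbers).

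**Figure D4:**
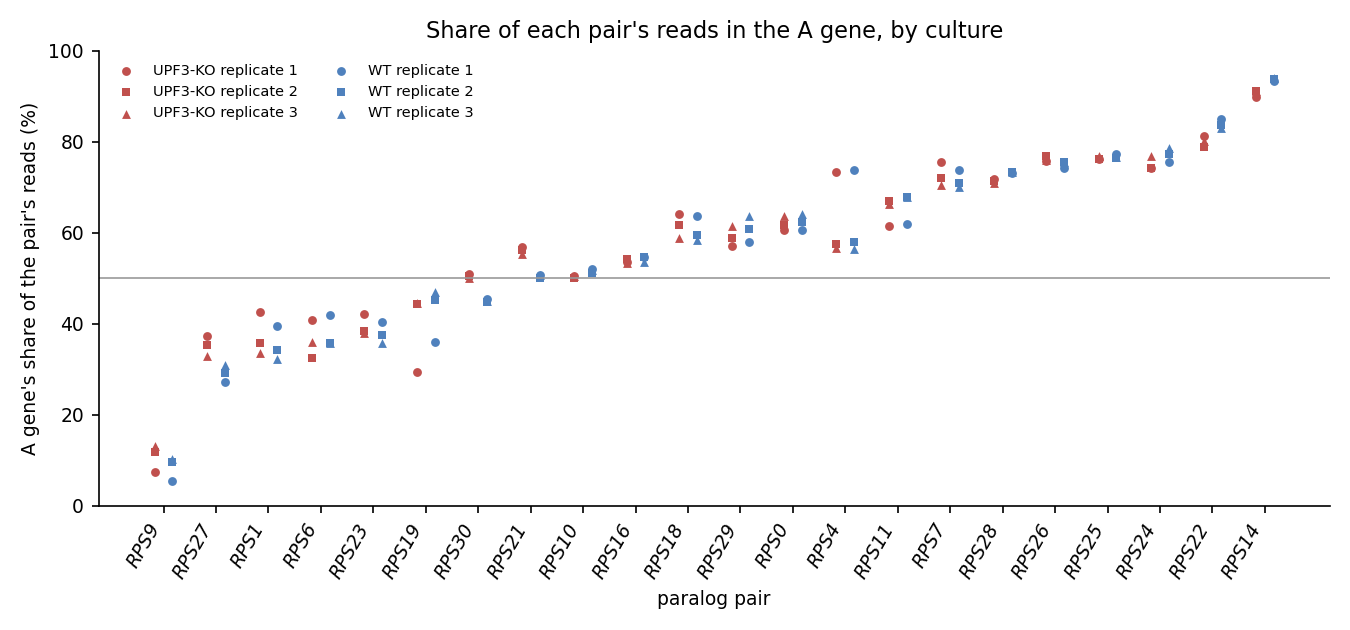
Share of the pair's reads taken by the A gene in 22 of the 24 pairs (percent, summed labelled libraries) in the 3 UPF3-KO cultures (red, left) and the 3 WT cultures (blue, right), with pairs ordered by the WT mean and marker shapes for replicate numbers. Shares run from under 14% for RPS9 to over 89% for RPS14, and the circles of replicate 1 stand apart in both genotypes for RPS4 and RPS19.

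The genes of a pair differed in half-life more often than not. In 21 of 24 pairs the same gene had the longer half-life in all 6 cultures (exact sign-flip test over cultures, p = 0.03125 per pair, the smallest for 6 cultures, unadjusted over 24 pairs), and 18 of these held the same side in all 6 cultures under the exponential fit and the line without the last point as well. Among the largest differences of A minus B by the line were those of RPS14 (log2 difference 0.68 ± 0.11, SD, n = 6), RPS9 (-0.61 ± 0.22) and RPS25 (0.51 ± 0.06). Their size depended on the curve. The exponential gave 0.87 for RPS14, -1.39 for RPS9 and 0.44 for RPS25, and the line without the last point 1.47, -1.69 and 0.89. The values by culture that follow are from the line fitted to all points. For RPS14 the difference was 0.78, 0.62 and 0.68 in UPF3-KO and 0.80, 0.50 and 0.69 in WT. For RPS9 it was -0.44, -1.01 and -0.63 in UPF3-KO and -0.39, -0.66 and -0.56 in WT. By the line the RPS22 genes differed by 0.31 ± 0.07 and the RPS28 genes by 0.11 ± 0.04, with the A gene longer in all 6 cultures. These differences were 0.49 and 0.31 by the exponential, and 0.82 and 0.67 without the last point. A line on the labelled amount, not part of the count of 18, gave RPS28 no constant side. In WT it gave 18.5 ± 1.60 min for RPS28A and 18.7 ± 0.934 min for RPS28B. By that line RPS22A was not longer in UPF3-KO replicate 1 (15.05 min, against 15.06 min for RPS22B). RPS21, RPS10 and RPS6 had no constant side, with A longer in 3 of 6 cultures each. For RPS21, A minus B was 0.22, 0.17 and 0.16 in UPF3-KO and -0.05, -0.10 and -0.09 in WT.

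The more abundant gene of a pair was mostly the one with slower loss of label. In 20 of 24 pairs the gene with more reads in WT had the longer half-life, and in 19 of 24 it kept more label at point 5. Across the 24 pairs the label left in the A and the B gene in WT had a Spearman's rho of -0.64, and their half-lives had a Pearson's r of -0.58 and a rho of -0.59, over genes that share their libraries. In the RPS9 pair the minor gene RPS9A kept 23.6% ± 1.95 of its label at point 5 in UPF3-KO and 21.6% ± 0.688 in WT, and the major gene RPS9B 64.4% ± 1.47 in UPF3-KO and 63.0% ± 2.83 in WT. In the RPS27 pair the minor gene RPS27A kept 40.3% ± 1.05 in UPF3-KO and 35.8% ± 0.218 in WT, and RPS27B 64.4% ± 4.14 in UPF3-KO and 60.7% ± 3.43 in WT.

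**Figure D5:**
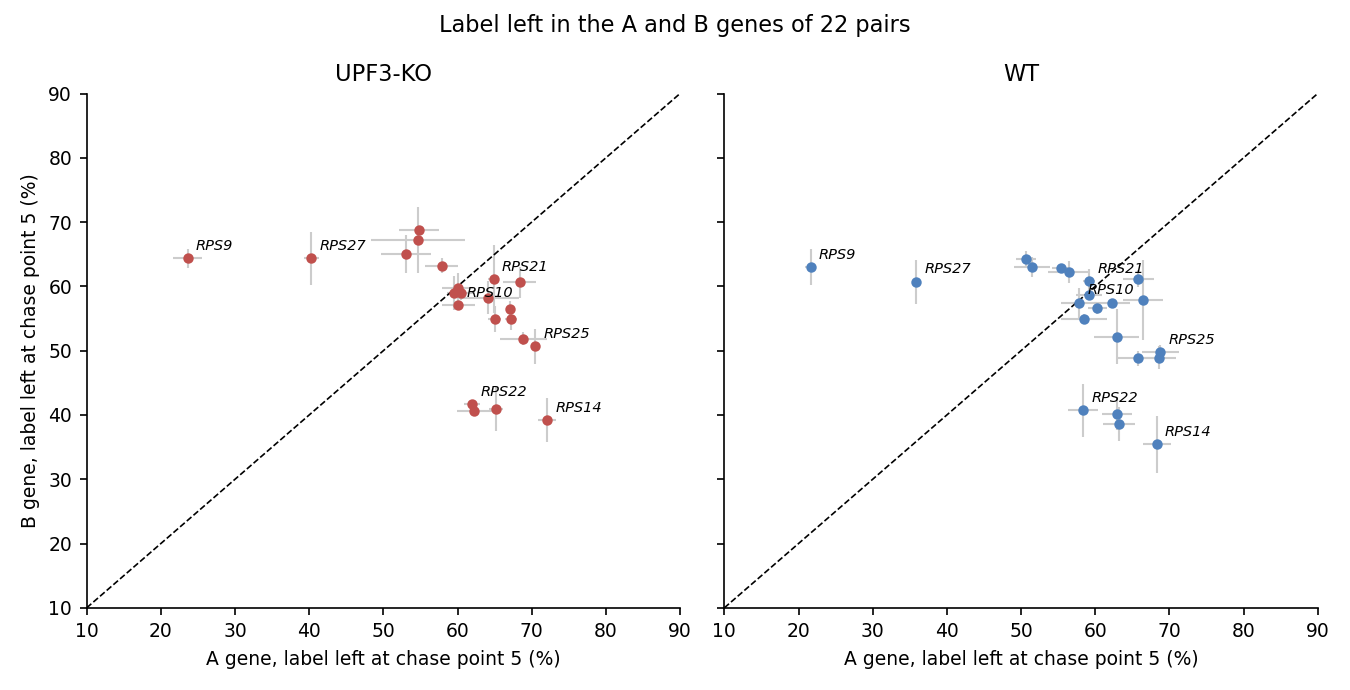
Label left at chase point 5 in the A gene (horizontal axis) and the B gene (vertical axis) of 22 pairs, in percent of the first chase point, for UPF3-KO (left) and WT (right), as means with SD of 3 cultures and a dashed line of equal values. RPS9 and RPS27 lie above the line and RPS14 and RPS22 below it in both genotypes.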

How the data were processed

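Total RNA of 6 cultures was alkylated and made into 3′-end libraries (QuantSeq FWD), per the labels' protocols. Read counts per gene were deposited by the authors as SlamDunk tables that give 1 entry for each gene in each library, with multi-mapping reads and covered and converted T bases counted beside them. The deposited conversion rate is a fraction, which the authors made by dividing converted by covered T bases, per the file headers. Deposited columns of CPM, window length and chase time were used for length and time only. The genome build is R64, per the submitters' processing notes. For mapping and counting, versions and settings are not given in the sources used. Of 5560 identifiers 5558 matched a RefSeq R64 locus tag.

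The genes and lists here were chosen with earlier results of these data known. Reads were tested with edgeR 4.0.16 (filterByExpr, TMM, quasi-likelihood), with 5555 genes in the labelled comparison, and DESeq2 1.42.0 was an alternative. Label rates had the unlabelled library subtracted. Half-lives come from a read-weighted line of −log2 rate on time, for genes with a mean of 20 or more reads per labelled library, 3 or more points above background and a positive slope in every culture (5333 genes), and were tested, like first label and label left, with limma 3.58.1 (trend, robust). Adjusted p values are Benjamini-Hochberg over all genes tested, two-sided, threshold 0.05. Analyses used R 4.3.3 and figures matplotlib 3.10.9, and the tests were checked on simulated data. The simulated cultures were independent, with no effect shared by a replicate number, so the check does not cover such an effect. Alternatives were other size factors, no filter on low counts, DESeq2, removal of multi-mapping reads, a stricter read minimum, no background subtraction, other curves, each culture left out, and a replicate block. Leaving out both cultures numbered 1, or the third labelled library of UPF3-KO replicate 1, was added after seeing the data.

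Replicate numbers come from the sample titles. They pair the cultures in reads, where the correlation of same-numbered deviations exceeded 0.1 for every number, as seen in the data and not stated in the labels, but not in half-life (0.06, 0.03 and 0.02). Library barcodes of 7 libraries were shared by UPF3-KO replicates 1 and 2 and of 7 by UPF3-KO replicate 3 and WT replicate 1.

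Genes named with values are UPF3, then in each comparison the members called (the 5 lowest p per direction if over 10, and the 5 lowest p if none), the 3 highest and 3 lowest by level and by WT half-life, the 4 most unequal and 2 most equal pairs, the 4 pairs with the largest half-life difference, and RPS28A, RPS28B, RPS14A, RPS14B, RPS22A, RPS22B, RPS9A, RPS9B, RPS31 and ASC1. Others are named where a count was small or after their values were seen. A few of the 57 genes are not reported here by name and are not drawn, but are counted in all summaries. In the lists, 37 of 39 assembly symbols and 15 of 16 regulator symbols were in the files.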

Additional observations from a re-analysis of the deposited data

Results flagged for a closer look

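RPS15 differed between genotypes in its change over the chase. The log2 change in reads from first to last chase point was smaller in UPF3-KO than in WT by an interaction of -0.91 (SE 0.20, adjusted p = 0.0492, edgeR), lower in 3 of 3 deletion cultures. It was the 1 of 57 genes to pass, and the call was lost with RLE size factors and without UPF3-KO replicate 2 or any 1 WT culture.

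RPS30A took more of the RPS30 reads than RPS30B in all 3 UPF3-KO cultures and fewer in all 3 WT cultures, a difference of 5.48 points in the labelled libraries. RPS30A took more in all 6 cultures in the unlabelled libraries, 57.8% ± 2.58 in UPF3-KO and 51.3% ± 1.16 in WT (SD, n = 3 each). Whether the lean toward A and toward B differs between genotypes was not tested beyond the exact permutation test of the shares, which cannot go below 0.1.

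RPS21A had a longer half-life than RPS21B in all 3 UPF3-KO cultures and a shorter one in all 3 WT cultures, a difference of 0.26 on the log2 scale. This difference was not tested. It rests on the fitted half-life: in label left at point 5, RPS21A kept more than RPS21B in 2 of 3 UPF3-KO cultures and in 1 of 3 WT cultures.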

How the results depend on the processing

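Of the counts that answer a comparison, 268 recomputed values stayed within 1.5 times the reported one and 42 did not. With the replicate block, 1 gene rose and 4 fell in the labelled libraries, 1 fell in the unlabelled ones, and 10 pairs had a higher and 10 a lower A share in every number; the block changed no other call. DESeq2 called 2 genes lower in the labelled and 1 in the unlabelled libraries. RLE size factors gave 5 genes at chase point 5 and 0 in the interaction at point 6. Without both cultures numbered 1, 1 gene was higher and 2 lower in the labelled libraries, 1 lower in the unlabelled ones, 2 higher and 37 lower with 4TU, and 14 and 43 rose at points 4 and 5. Leaving out each culture in turn gave 0 to 1 lower in the unlabelled libraries, 0 to 2 higher and 0 to 28 lower with 4TU, 1 to 27 at point 4, 4 to 51 at point 5, 0 to 1 in the interaction, and 4 to 8 pairs with a lower A share. In the unlabelled libraries 2 pairs had a lower A share without overlap, and the difference reversed for RPS10A (0.399 points), RPS22A (1.36) and RPS26A (-0.647). The cause was not tested. Each of the 57 genes had at least 1822 reads in every library, and exact tests of 3 cultures against 3 cannot go below p = 0.1.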

Other observations

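The replicate number went with the split of some pairs more than the genotype did. RPS4A took 73.4%, 57.6% and 56.6% of the RPS4 reads in UPF3-KO and 73.7%, 58.0% and 56.3% in WT, so both cultures numbered 1 stood above the other 4. RPS19A took 29.4%, 44.4% and 44.5% in UPF3-KO and 35.9%, 45.2% and 47.0% in WT, with both cultures numbered 1 lowest. The labels do not say what the cultures numbered 1 share, and its part in the results was not tested. These pairs were chosen after their values were seen.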
